A study of Mus musculus with 9 samples.

Results

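The S100 genes encode small calcium-binding proteins, and 8 of them are described here in conventional type 2 dendritic cells (cDC2s): S100a1, S100a4, S100a6, S100a8, S100a9, S100a10, S100a11 and S100a13. They were found by an exact match of the gene symbol among the 40879 symbols counted, of which 13251 had enough counts to be tested, all 8 included. The set was chosen by the measured levels of S100a8 and S100a9, which lay on opposite sides of the wild type in the other groups, so levels and differences of the 8 genes are given as a description with no test. The cells were grown from mouse bone marrow for 9 days with recombinant human Flt3L at 100 ng/ml, a cytokine that drives dendritic cell development, and cDC2s were then isolated by FACS. There were 3 groups of 3 libraries. The A20iKO group had the genotype A20fl/fl x CD11ccre, in which Cre recombinase under the CD11c promoter deletes floxed A20, the ubiquitin-editing restraint on NF-kB signalling encoded by Tnfaip3, so that deletion depends on a cell having expressed CD11c. The WT+IFNa group was wild type and received interferon alpha (IFNa) on day 5. The WT group was wild type. A treatment field names IFNa for all 9 libraries, while titles and the separate treatment entry name it for the WT+IFNa libraries alone, and the groups follow the titles.

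S100 proteins bind calcium through EF-hands and mostly work as dimers that change shape on binding it and then dock onto partner proteins. S100A8 and S100A9 form calprotectin, a heterodimer stored in large amounts in neutrophils and monocytes that withholds zinc and manganese from microbes and, once released, acts as a danger signal on TLR4 and RAGE. S100A10, S100A11, S100A4 and S100A6 work mainly inside the cell with annexins, the cytoskeleton and ubiquitin ligase adaptors.

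Levels are CPM, the counts of 3′ tag reads as a share of the library total scaled by TMM factors, so they are not scaled by transcript length. Different genes are set beside each other on this basis, but counts of overlapping or near-identical genes are uncertain and other differences between genes were not checked. Total counts were 7187359 to 9518822 in A20iKO, 7041519 to 10246810 in WT+IFNa and 6900598 to 10552756 in WT libraries. Tnfaip3 had 285, 476 and 377 counts in A20iKO, 73, 84 and 74 in WT+IFNa and 232, 51 and 42 in WT libraries, but the labels do not say where the deleted part lies relative to the 3′ tag, so these counts do not check the deletion. All 9 cDC2 markers listed were read in every library, with a summed level of 4617 to 5211 CPM in A20iKO, 6499 to 7414 CPM in WT+IFNa and 8707 to 11382 CPM in WT libraries. In A20iKO against WT, 7 of them were lower and 1 higher by the test described below, where 4.91% of all genes tested were lower and 5.77% higher. H2-Ab1 made up most of the sum (3802 of 4922 CPM in A20iKO and 8487 of 10400 CPM in WT, as means). Sirpa averaged 455 ± 32.5 CPM in A20iKO and 170 ± 39.5 CPM in WT, and Cd209a 11 ± 4.32 CPM in A20iKO and 331 ± 63.9 CPM in WT. One library of each group (A20iKO 1, WT+IFNa 3 and WT 2) held 2715 to 3100 CPM of the collagen transcript Col1a1, against 285 to 1472 CPM in the others. In bulk RNA, fewer cells of a type and less RNA per cell cannot be told apart.

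S100a8 and S100a9, the calprotectin subunits, were lowest in A20iKO and highest in WT+IFNa cDC2s. S100a8 stood at 3.67, 6.91 and 7.36 CPM in A20iKO, at 115.3, 115.7 and 130.2 CPM in WT+IFNa and at 32.0, 39.7 and 37.6 CPM in WT libraries. S100a9 stood at 3.94, 4.08 and 6.52 CPM in A20iKO, at 156.5, 139.0 and 175.9 CPM in WT+IFNa and at 47.6, 47.9 and 47.7 CPM in WT libraries. No library of one group overlapped those of another for either gene. Behind the low A20iKO values were 28, 61 and 70 counts of S100a8 and 30, 36 and 62 counts of S100a9, against 297 or more counts per library in WT for either gene.

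The mean of S100a8 was 5.98 ± 2.01 CPM in A20iKO, 120 ± 8.52 CPM in WT+IFNa and 36.4 ± 3.95 CPM in WT (SD, n = 3 each). The mean of S100a9 was 4.84 ± 1.45 CPM in A20iKO, 157 ± 18.4 CPM in WT+IFNa and 47.8 ± 0.173 CPM in WT (SD, n = 3 each). Relative to WT, A20iKO was 6.09-fold lower for S100a8 and 9.86-fold lower for S100a9 (log2 fold change −2.60 with an SE of 0.267 and −3.29 with an SE of 0.238). WT+IFNa was 3.30-fold higher than WT for S100a8 and 3.29-fold higher for S100a9 (log2 fold change 1.72 with an SE of 0.248 and 1.72 with an SE of 0.214). The gap between A20iKO and WT+IFNa was 20.1-fold for S100a8 and 32.4-fold for S100a9, with A20iKO the lower. The comparisons with WT share the same WT libraries, so they are not independent of each other.

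**Figure D1:**
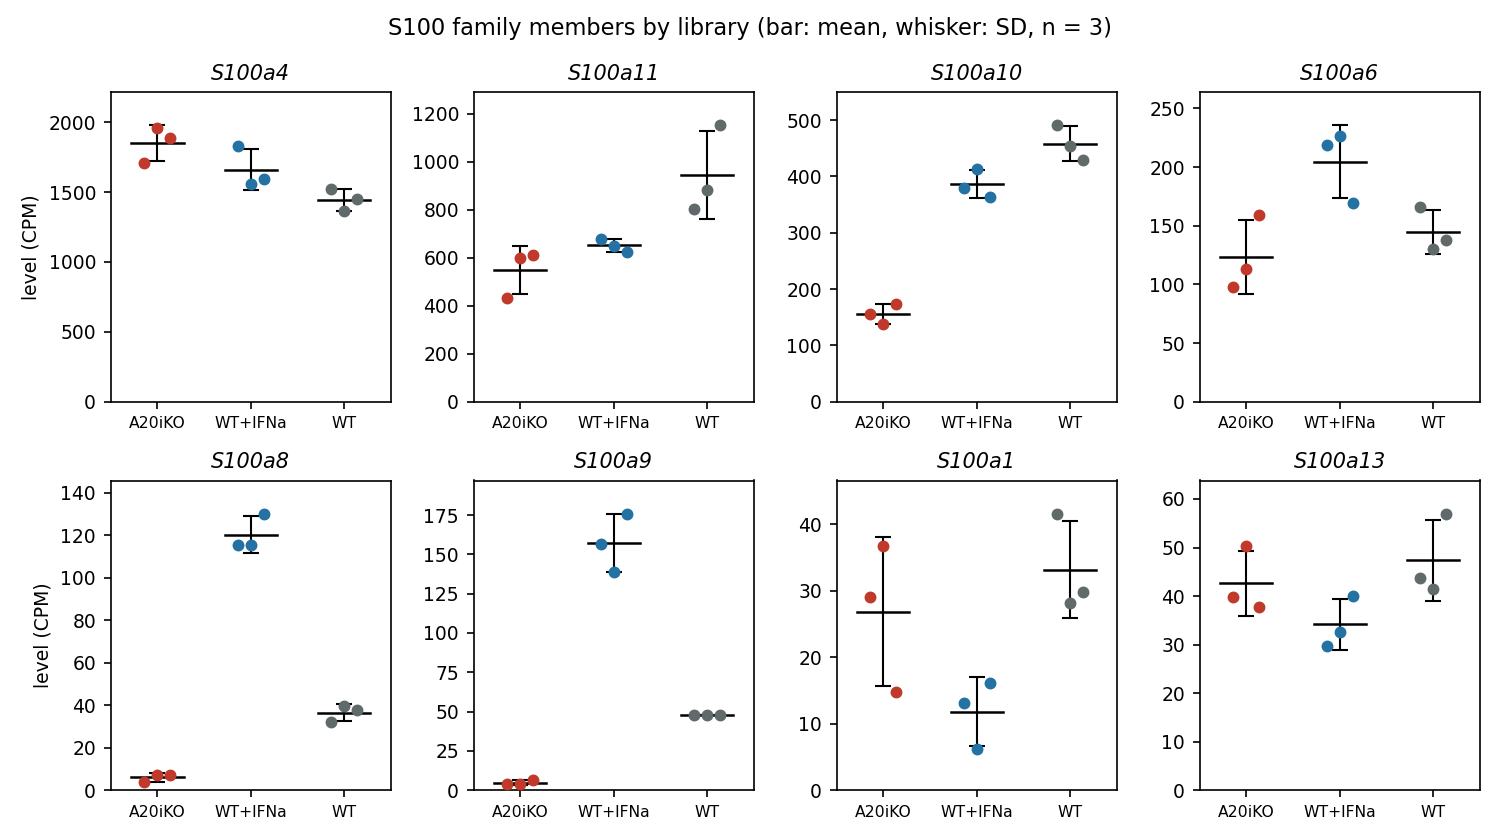
Level of each of the 8 S100 genes in CPM (vertical axes, from 0) in the 9 libraries, with A20iKO, WT+IFNa and WT from left to right. Points are libraries, bars are means and whiskers are SDs of 3 libraries. S100a8 and S100a9 lie at 3.67 to 7.36 CPM in A20iKO and at 115.3 to 175.9 CPM in WT+IFNa libraries, and S100a10 has A20iKO below both other groups.

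The 2 genes neighbour each other on chromosome 3 and are read from opposite strands. Because their levels had the same order of groups, the 250 bases before each start are shown (RefSeq, GRCm38.p6, matched by symbol, since the counts were made on GRCm39). The S100a8 window is chr3:90668821-90669070 on the + strand and the S100a9 window is chr3:90695722-90695971 on the − strand, each written 5′ to 3′ towards its gene. Capitals mark matches to GAGGAA on the opposite strand (read here as TTCCTC, the core bound by the myeloid factor PU.1) and TATAAA in S100a8, and to TTGCNNAA, the C/EBP letters searched, in S100a9.
S100a8: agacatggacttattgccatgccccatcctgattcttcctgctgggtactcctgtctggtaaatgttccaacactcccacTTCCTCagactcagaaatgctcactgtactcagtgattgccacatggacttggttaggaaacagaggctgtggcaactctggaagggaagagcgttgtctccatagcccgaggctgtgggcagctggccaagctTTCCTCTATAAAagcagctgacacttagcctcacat
S100a9: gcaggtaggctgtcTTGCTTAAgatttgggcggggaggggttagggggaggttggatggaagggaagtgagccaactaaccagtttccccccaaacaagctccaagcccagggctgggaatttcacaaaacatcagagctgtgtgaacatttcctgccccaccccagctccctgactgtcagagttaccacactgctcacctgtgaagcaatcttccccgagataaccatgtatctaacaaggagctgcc
In the S100a8 window, TTCCTC began 170 and 36 bases before the start and TATAAA 30 bases before it, so that the nearer TTCCTC runs into TATAAA. In the S100a9 window the TTGCNNAA match began 236 bases before the start. Of 32851 RefSeq windows of the same length, 23.3% held GAGGAA on either strand, 7.59% held TATAAA on their own strand and 9.56% held TTGCNNAA. No window of the 7 S100 genes with an entry held the interferon response motif (in 2.98% of all windows), the STAT motif TTCNNNGAA (7.02%) or the NF-kB motif (0.98%), searched on both strands. These are letter matches in a short window and not measured sites, and the TATAAA search was added after the sequences had been seen.

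As the protein complex needs both subunits, the balance of their transcripts was computed as the share of S100a8 in the summed S100a8 and S100a9 counts. It was 48.3% in A20iKO 1 (exact 95% interval 35.0% to 61.8%), 62.9% in A20iKO 2 (52.5% to 72.5%) and 53.0% in A20iKO 3 (44.2% to 61.8%). In WT+IFNa libraries it was 42.4%, 45.4% and 42.5%, with bounds between 40.4% and 47.5%. In WT libraries it was 40.2%, 45.3% and 44.1%, with bounds between 36.8% and 49.2%. The means were 54.7% ± 7.45 in A20iKO, 43.5% ± 1.70 in WT+IFNa and 43.2% ± 2.64 in WT (SD, n = 3 each). Each A20iKO library lay above every library of the other groups, but the intervals of A20iKO 1 and A20iKO 3 reached into the range of the others. The intervals are Clopper-Pearson and cover counting error only, since the reads are not known to carry molecular identifiers.

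**Figure D2:**
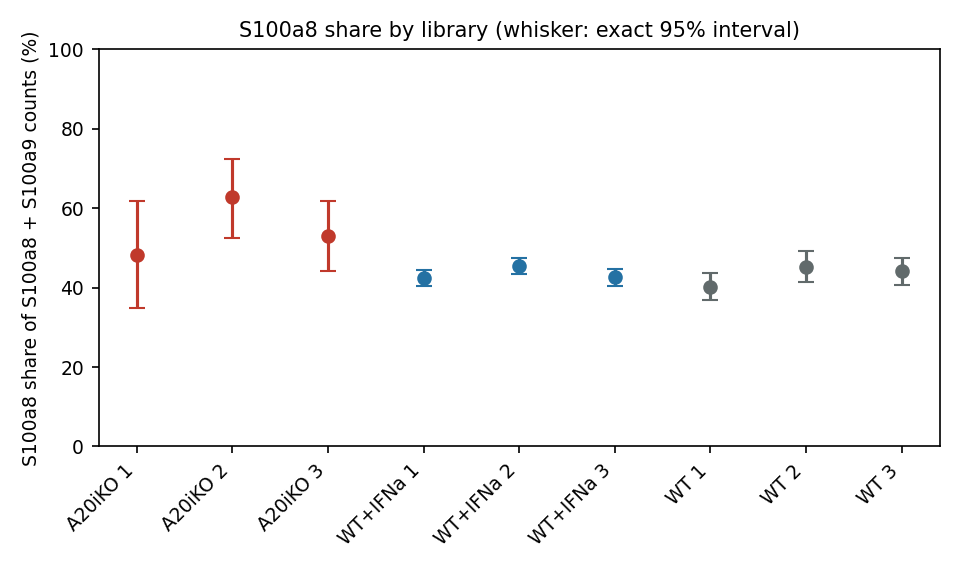
Share of S100a8 in the summed S100a8 and S100a9 counts (vertical axis, percent, 0 to 100) in each of the 9 libraries, with A20iKO left, WT+IFNa in the middle and WT right. Whiskers are exact 95% intervals of counting. The A20iKO shares of 48.3% to 62.9% have wide intervals, and the other 6 libraries lie between 40.2% and 45.4%.

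Calprotectin transcripts are most abundant in neutrophils and monocytes, so markers of these cells were read in the same libraries. The 19 neutrophil and granulocyte precursor markers summed to 367 to 474 CPM in A20iKO, 101 to 148 CPM in WT+IFNa and 35.1 to 64.2 CPM in WT libraries. The test was edgeR's quasi-likelihood test with a Benjamini-Hochberg adjusted p under 0.05, as in all tests below. Over all genes tested, 5.77% rose in A20iKO against WT and 2.4% in WT+IFNa against WT. Of the 16 markers tested, 6 rose in A20iKO against WT and 1, Prtn3, rose in WT+IFNa against WT. The primary granule proteases and peroxidase led this: Prtn3 averaged 174 ± 38.9 CPM in A20iKO, 7.19 ± 3.67 CPM in WT+IFNa and 0.593 ± 0.544 CPM in WT, and Mpo averaged 65.3 ± 6.76 CPM in A20iKO, 2.94 ± 2.05 CPM in WT+IFNa and 1.79 ± 3.10 CPM in WT. The summed neutrophil markers were therefore highest in the group where S100a8 and S100a9 were lowest. Prtn3 and Mpo weighed heavily in the mean A20iKO sum of 426 CPM, so the sum does not stand for each marker.

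Other markers of the list did not share 1 order of groups. Mmp8, the neutrophil collagenase, averaged 77.6 ± 16.5 CPM in A20iKO, 5.49 ± 0.794 CPM in WT+IFNa and 8.59 ± 3.53 CPM in WT, and Csf3r, the G-CSF receptor gene, averaged 35.9 ± 13.7 CPM in A20iKO, 7.11 ± 3.31 CPM in WT+IFNa and 2.52 ± 2.42 CPM in WT, so both were highest in A20iKO. Ngp, a secondary granule protein, averaged 0.666 ± 1.15 CPM in A20iKO, 35.2 ± 8.15 CPM in WT+IFNa and 7.51 ± 5.54 CPM in WT, by means the same order of groups as S100a8 and S100a9. By library, Ngp had 0, 0 and 19 counts in A20iKO, and A20iKO 3 (2.00 CPM) lay above WT 2 (1.74 CPM, 13 counts). Camp, the cathelicidin precursor, averaged 0.350 ± 0.606 CPM in A20iKO, 3.59 ± 0.879 CPM in WT+IFNa and 2.68 ± 1.82 CPM in WT. Lcn2 averaged 3.23 ± 2.57 CPM in A20iKO, 14.3 ± 4.26 CPM in WT+IFNa and 3.85 ± 3.33 CPM in WT. Ltf averaged 0.131 ± 0.227 CPM in A20iKO, 4.29 ± 2.97 CPM in WT+IFNa and 3.16 ± 4.34 CPM in WT. By means Camp, Lcn2 and Ltf also had the order of S100a8 and S100a9, each with overlap between some groups. Ctsg and Elane were highest in A20iKO by means. Ly6g, which defines mature mouse neutrophils, had 0 counts in all 9 libraries, and the chemokine receptor gene Cxcr2 averaged 3.37 ± 2.46 CPM in A20iKO, 5.08 ± 1.71 CPM in WT+IFNa and 0.490 ± 0.848 CPM in WT. Of the 19 markers, 4 to 7 were at 0 in an A20iKO library, 1 to 3 in a WT+IFNa library and 6 to 8 in a WT library. The part of neutrophil precursors in the S100a8 and S100a9 levels was not tested.

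The 16 monocyte and macrophage markers summed to 3222 to 3520 CPM in A20iKO, 2626 to 2762 CPM in WT+IFNa and 1548 to 2080 CPM in WT libraries. Of these, 11 rose (Cd14 among them) and 1 fell in A20iKO against WT, and 4 rose and 2 fell in WT+IFNa against WT. Over all genes tested, 5.77% rose and 4.91% fell in the first comparison, and 2.4% rose and 0.702% fell in the second. Ly6c2, which marks classical monocytes, averaged 740 ± 115 CPM in A20iKO, 678 ± 103 CPM in WT+IFNa and 26.0 ± 10.6 CPM in WT, and Lyz2, encoding lysozyme, averaged 698 ± 88.5 CPM in A20iKO, 129 ± 17.5 CPM in WT+IFNa and 363 ± 48.1 CPM in WT. Lyz2 was highest in A20iKO, where S100a8 and S100a9 were lowest. The mean of Ly6c2 was also highest there, but its A20iKO (668.8 to 872.2 CPM) and WT+IFNa libraries (572.4 to 777.9 CPM) overlapped, both above WT. Ccr2, the chemokine receptor gene of classical monocytes, averaged 566 ± 91.2 CPM in A20iKO, 1063 ± 212 CPM in WT+IFNa and 772 ± 102 CPM in WT, the same order of groups as S100a8 and S100a9. Fcgr1, a high-affinity IgG receptor gene, averaged 23.6 ± 9.43 CPM in A20iKO, 74.5 ± 17.5 CPM in WT+IFNa and 1.92 ± 1.55 CPM in WT, and Adgre1, encoding F4/80, averaged 37.0 ± 2.72 CPM in A20iKO, 38.4 ± 13.3 CPM in WT+IFNa and 92.3 ± 28.6 CPM in WT. The monocyte and macrophage markers thus did not share 1 order of groups, and the part of monocytes in the S100a8 and S100a9 levels was not tested. The 8 stromal markers summed to 410 to 3981 CPM in A20iKO, 526 to 4327 CPM in WT+IFNa and 679 to 3856 CPM in WT libraries. Without the library of highest Col1a1 in each group, the log2 fold change of A20iKO over WT was −2.28 for S100a8 and −3.16 for S100a9, and that of WT+IFNa over WT was 1.73 for S100a8 and 1.64 for S100a9.

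**Figure D3:**
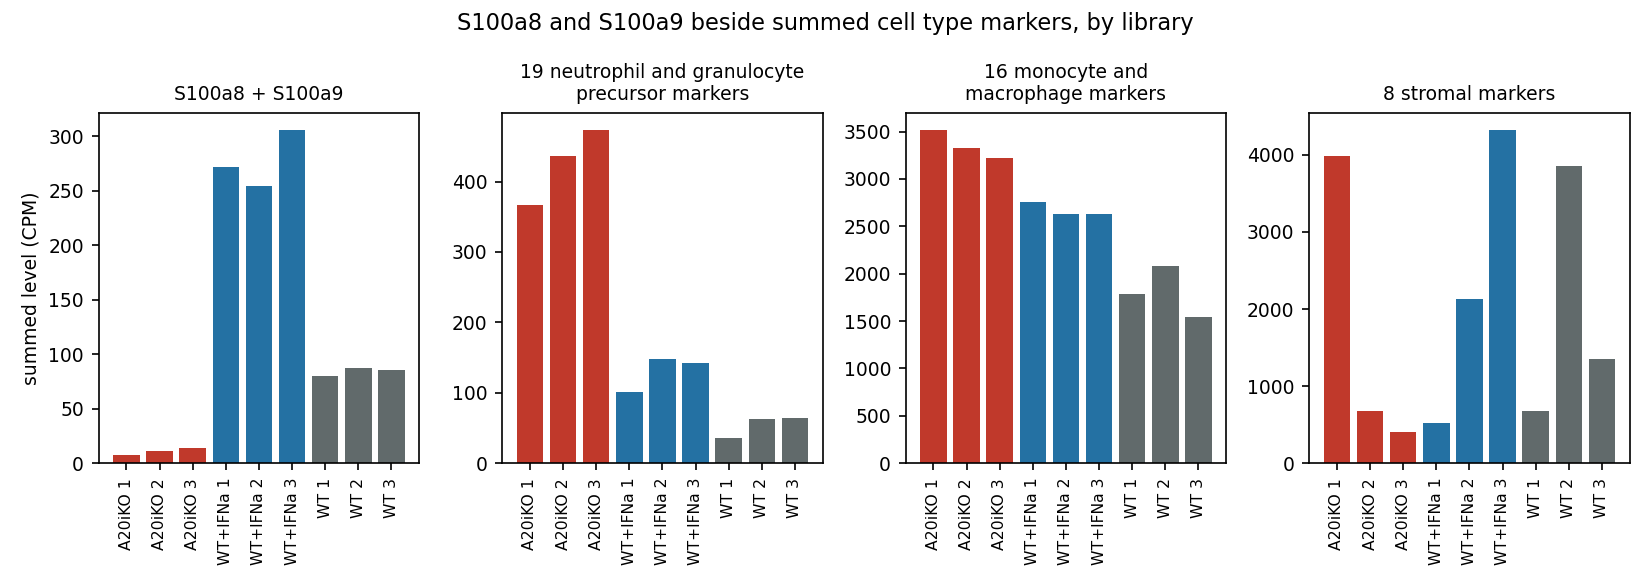
Summed level in CPM (vertical axes, from 0) of S100a8 with S100a9, and of the neutrophil and granulocyte precursor, monocyte and macrophage, and stromal marker lists, in each of the 9 libraries (bars, with A20iKO left, WT+IFNa in the middle and WT right). The S100a8 and S100a9 sum is 7.61 to 13.9 CPM in A20iKO and 255 to 306 CPM in WT+IFNa libraries, while the neutrophil and granulocyte precursor sum is highest in A20iKO.

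S100a10 and S100a11, the annexin-binding members, were lower in A20iKO than in WT. S100A10 has lost calcium binding and sits with annexin A2 in a complex at the plasma membrane, and S100A11 binds annexin A1. S100a10 had 155.8, 137.6 and 173.0 CPM in A20iKO, 380.2, 413.5 and 364.1 CPM in WT+IFNa and 490.9, 454.6 and 428.8 CPM in WT libraries. S100a11 had 432, 600 and 612 CPM in A20iKO, 678, 651 and 626 CPM in WT+IFNa and 802, 882 and 1153 CPM in WT libraries. For both genes the 3 groups did not overlap and kept the order A20iKO, WT+IFNa, WT from low to high, so that the groups were ordered differently from those of S100a8 and S100a9.

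S100a10 averaged 155 ± 17.7 CPM in A20iKO, 386 ± 25.2 CPM in WT+IFNa and 458 ± 31.2 CPM in WT (SD, n = 3 each). Its log2 fold change was −1.56 (SE 0.142) for A20iKO over WT, −0.25 (SE 0.139) for WT+IFNa over WT and −1.31 (SE 0.141) for A20iKO over WT+IFNa. S100a11 averaged 548 ± 100 CPM in A20iKO, 652 ± 26.4 CPM in WT+IFNa and 945 ± 184 CPM in WT, with log2 fold changes of −0.79 (SE 0.168) for A20iKO over WT and −0.54 (SE 0.167) for WT+IFNa over WT. S100a10 differed mostly between A20iKO and the 2 wild-type groups, and S100a11 mostly between WT and the other groups. The 2 genes are neighbours on chromosome 3. In the window before S100a11, GAGGAA began 153 bases before the start.

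S100a4 held the highest level of the 8 genes in every library, and S100a6 followed S100a10 in each group's order of means. S100A4 binds non-muscle myosin IIA and promotes cell motility, and S100A6 binds the calcyclin-binding protein encoded by Cacybp. S100a4 had 1711, 1957 and 1889 CPM in A20iKO, 1830, 1557 and 1592 CPM in WT+IFNa and 1522, 1364 and 1452 CPM in WT libraries. Every A20iKO and WT+IFNa library lay above every WT library, and the A20iKO and WT+IFNa libraries overlapped. The means were 1852 ± 127 CPM in A20iKO, 1660 ± 148 CPM in WT+IFNa and 1446 ± 79.4 CPM in WT (SD, n = 3 each), which is a log2 fold change of 0.36 (SE 0.112) for A20iKO over WT and 0.20 (SE 0.112) for WT+IFNa over WT. With library totals as the only scaling the WT+IFNa difference was 0.07, and WT+IFNa 3 then lay just below WT 3. In GENCODE M21 the predicted gene Gm42674 overlaps S100a4 on the same strand, so reads of both could be counted together.

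S100a6 had 97.5, 113.4 and 158.9 CPM in A20iKO, 218.5, 226.5 and 169.2 CPM in WT+IFNa and 166.2, 130.4 and 137.6 CPM in WT libraries. The WT+IFNa libraries lay above all others, though WT+IFNa 3 was close to WT 1, and A20iKO overlapped WT because A20iKO 3 was high. The log2 fold change of S100a6 was −0.23 (SE 0.203) for A20iKO over WT and 0.50 (SE 0.203) for WT+IFNa over WT, and it was −0.73 (SE 0.204) for A20iKO over WT+IFNa, whose libraries did not overlap. S100a6 thus shared its highest group with S100a8 and S100a9, on a smaller scale. A readthrough transcript of S100a6 and S100a7a is listed in the files at 0 counts in all 9 libraries.

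S100a1 and S100a13 were read at 57.0 CPM or less in every library. S100A1 is known chiefly as a regulator of calcium cycling in heart muscle, and S100A13 takes part in the export of FGF1 and interleukin 1 alpha, which lack a signal peptide. S100a1 had 29.1, 36.8 and 14.7 CPM in A20iKO, 13.2, 6.13 and 16.2 CPM in WT+IFNa and 41.6, 28.2 and 29.8 CPM in WT libraries. S100a13 had 39.9, 50.3 and 37.8 CPM in A20iKO, 29.8, 32.6 and 40.0 CPM in WT+IFNa and 43.7, 41.5 and 57.0 CPM in WT libraries. All WT+IFNa libraries lay below all WT libraries for both genes, with WT+IFNa 3 close to WT 2 for S100a13, and A20iKO overlapped both other groups. The log2 fold change of WT+IFNa over WT was −1.49 (SE 0.422) for S100a1 and −0.47 (SE 0.240) for S100a13. That of A20iKO over WT was −0.31 (SE 0.410) for S100a1 and −0.15 (SE 0.238) for S100a13, each smaller than its SE.

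S100a13 and S100a1 lie head to head, with S100a13 on the + strand and S100a1 on the − strand of chromosome 3. The 104 bases between their starts, which lie before both genes, are shown because the pair shares this stretch (RefSeq, GRCm38.p6, chr3:90514331-90514434, + strand, GC content 58.7%, no motif searched here within it).
S100a13 and S100a1: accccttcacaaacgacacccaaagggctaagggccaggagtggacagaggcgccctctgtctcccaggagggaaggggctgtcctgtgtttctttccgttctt
Across the 9 libraries, the log2 levels of S100a1 and S100a13 had a Pearson correlation of 0.75, and those of S100a8 and S100a9 of 0.99. The libraries of a group share their genotype and treatment, so these values describe group differences as well as spread within groups.

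**Figure D4:**
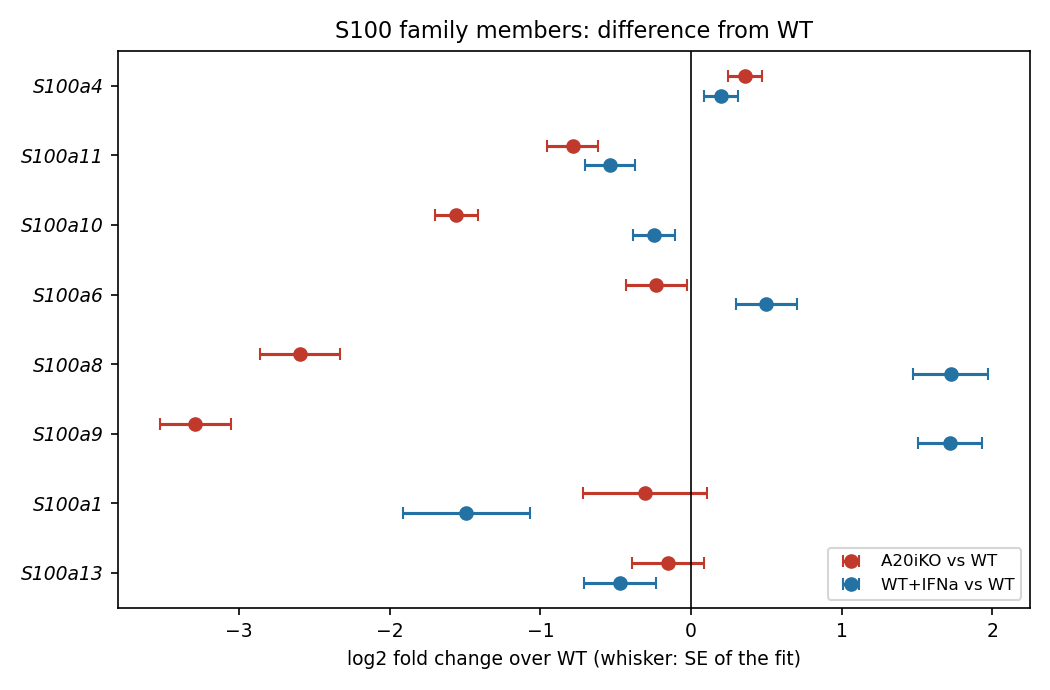
Log2 fold change over WT (horizontal axis) of the 8 S100 genes for A20iKO (upper point of each pair) and WT+IFNa (lower point), with whiskers of 1 SE of the fit. S100a8 lies at −2.60 and 1.72 and S100a9 at −3.29 and 1.72, on opposite sides of 0, and S100a6 has the same signs at −0.23 and 0.50.

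Counted over the family, 4 of the 8 genes lay below WT in A20iKO with no overlap of libraries (S100a8, S100a9, S100a10 and S100a11) and 1 lay above (S100a4). Of all genes tested, 12.6% lay below and 15.4% lay above WT in A20iKO in this way. In WT+IFNa against WT, all 8 genes separated, 4 above (S100a4, S100a6, S100a8 and S100a9) and 4 below (S100a1, S100a10, S100a11 and S100a13), where 18.2% of all genes separated, 9.77% above and 8.45% below. For S100a4 this held with TMM scaling and not with library totals alone. In A20iKO against WT+IFNa, 5 of the 8 lay below (S100a6, S100a8, S100a9, S100a10 and S100a11), where 12.3% of all genes did. Nothing is read from these shares, since the set was chosen with the same comparisons known. The median log2 fold change of the 8 was −0.55 in A20iKO against WT, −0.02 in WT+IFNa against WT and −0.49 in A20iKO against WT+IFNa, beside −0.01, −0.02 and 0.02 over all genes.

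Taken as a sum, the 8 transcripts made up 2759 ± 248 CPM in A20iKO, 3226 ± 170 CPM in WT+IFNa and 3159 ± 178 CPM in WT (SD, n = 3 each). S100a4 held 67.2% ± 2.01 of that sum in A20iKO, 51.4% ± 1.97 in WT+IFNa and 45.8% ± 2.48 in WT. The family's make-up therefore differed more between groups than its sum did. By mean level over the 9 libraries, S100a4 ranked 41 among the 13251 genes, S100a11 135, S100a10 423, S100a6 1061, S100a9 2623, S100a8 3369, S100a13 4180 and S100a1 5861.

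The order of levels within a group began with S100a4, S100a11 and S100a10 in all 3 groups. In A20iKO, S100a6, S100a13, S100a1, S100a8 and S100a9 followed, and neighbours S100a10 and S100a6, and S100a8 and S100a9, had overlapping libraries. In WT+IFNa, S100a6, S100a9, S100a8, S100a13 and S100a1 followed, and S100a6 and S100a9 overlapped. In WT, S100a6, S100a9, S100a13, S100a8 and S100a1 followed, with overlap between S100a9 and S100a13 and between S100a8 and S100a1. Of the 8 genes, S100a8 thus stood 7th in A20iKO, 6th in WT+IFNa and 7th in WT, and S100a9 stood 8th, 5th and 5th.

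A further 10 S100 genes were listed, of which S100a2, S100a3, S100a14 and S100a16 had enough counts to be tested. S100a2 ranged from 0.490 to 29.1 CPM and S100a14 from 0.326 to 27.1 CPM between libraries, S100a3 from 0.101 to 7.48 CPM and S100a16 from 0.315 to 5.12 CPM. The lowest and highest libraries of S100a2 were both in the WT group. In each group the library of highest Col1a1 also held the highest S100a14, at 18.4 CPM in A20iKO 1, 18.5 CPM in WT+IFNa 3 and 27.1 CPM in WT 2. This held for S100a3 too, but among WT+IFNa libraries S100a2 and S100a16 were highest in WT+IFNa 2. The part of stromal cells in these levels was not tested. The adjusted p of A20iKO against WT was 0.373 for S100a3 and 0.758 to 0.876 for the other 3. S100a5 and S100b had 25 counts each over all libraries and S100g had 68, of which 48 were in A20iKO 1, while S100a7a, S100a7l2 and S100z had 0.

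Among 8138 genes with a mean of at least 10 CPM, the gene whose log2 level followed S100a8 most closely over the 9 libraries was S100a9 (Pearson r = 0.991), and B4galt5 was also among the 3 highest (0.972). S100a9 was followed most closely by S100a8, Pgap6 (0.981) and Elmo2 (0.980). The mean of S100a8 and S100a9 had Pgap6, Elmo2, Phactr2, Stk38 and Klk1b11 among its 6 highest, with r from 0.969 to 0.975. Klk1b11 was at 0 in all A20iKO libraries and averaged 67.9 ± 13.9 CPM in WT+IFNa and 26.3 ± 12.0 CPM in WT, although it belongs to a family of near-identical genes among which reads can be split.

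S100a10 was followed by Alcam (0.995), Dpep2 (0.989) and F2rl2 (0.987). Dpep2, a membrane dipeptidase, averaged 39.1 ± 8.80 CPM in A20iKO, 301 ± 10.7 CPM in WT+IFNa and 554 ± 93.9 CPM in WT, the same order of groups as S100a10. S100a11 was followed by Bscl2 (0.981), Prkd3 (0.970) and Rpl38 (0.965). S100a4 was followed by Usp35 (0.983), Mrps5 (0.976) and Acin1 (0.970), and S100a6 by Hip1r (0.962), Atp6v1d (0.955) and Lilra6 (0.952). S100a1 was followed by Cyp51 (0.939), Pfkl (0.927) and Ak3 (0.924), and S100a13 by Oxsr1 (0.926), Fam136a (0.894) and Gas7 (0.893). These are the highest among all 8138 genes searched, over libraries of 3 groups, and are given as a description.

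Genes that work with the S100 proteins had no part in the choice of the 8 genes and were then tested. Their list was itself chosen with earlier results of these data known, so nothing is read from its shares. The list held 53 receptors, intracellular partners, NADPH oxidase subunits, transcription factors and other EF-hand genes, of which 51 could be tested. In A20iKO against WT, 7 rose and 10 fell, or 33.3% of those tested, where 10.7% of all genes passed (5.77% higher and 4.91% lower). This count of 17 was 9 without WT 3 and 11 with the replicate number as a block in the fit. In WT+IFNa against WT, 1 rose, or 1.96%, beside 3.1% of all genes (2.4% higher and 0.702% lower). In A20iKO against WT+IFNa, 2 rose and 6 fell, or 15.7%, beside 5.46% of all genes (2.05% higher and 3.41% lower). The median log2 fold change of the 51 was 0.05 in A20iKO against WT, −0.02 in WT+IFNa against WT and 0.01 in A20iKO against WT+IFNa.

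Of the 13 intracellular partners tested, 6 fell and 1 rose in A20iKO against WT, where 4.91% of all genes fell and 5.77% rose. Ahnak, a giant scaffold protein bound by the S100A10 and annexin A2 complex, had 282, 284 and 292 CPM in A20iKO, 895, 796 and 746 CPM in WT+IFNa and 958, 665 and 925 CPM in WT libraries. It fell by 1.57 on the log2 scale in A20iKO against WT (SE 0.153, adjusted p = 2.2e-05) and by 1.51 against WT+IFNa (adjusted p = 6.5e-05). Anxa1, the partner of S100A11, had 45.1, 36.0 and 39.8 CPM in A20iKO, 105.3, 113.4 and 77.9 CPM in WT+IFNa and 156.8, 181.2 and 145.1 CPM in WT libraries. It fell by 2.00 in A20iKO against WT (SE 0.197, adjusted p = 2.4e-05) and by 1.30 against WT+IFNa (adjusted p = 0.0013). For both Ahnak and Anxa1, all A20iKO libraries lay below all others, as for S100a10 and S100a11.

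Anxa2, the partner of S100A10, averaged 367 ± 63.4 CPM in A20iKO, 420 ± 22.2 CPM in WT+IFNa and 566 ± 69.5 CPM in WT, and fell by 0.63 in A20iKO against WT (adjusted p = 0.020). This call was lost when any of A20iKO 1, A20iKO 3, WT 1 or WT 3 was left out (adjusted p = 0.0502 to 0.0701). Iqgap1, a cytoskeletal scaffold, fell by 0.75 against WT (adjusted p = 0.0089) and by 0.72 against WT+IFNa (adjusted p = 0.019). The second of these was lost without A20iKO 1, A20iKO 2, WT+IFNa 1 or WT+IFNa 2 (adjusted p = 0.064 to 0.113). Anxa5 fell by 0.66 (adjusted p = 0.036), lost without A20iKO 1, A20iKO 2 or WT 3 (adjusted p = 0.0974 to 0.182). Cacybp, the partner of S100A6, rose by 0.75 (adjusted p = 0.036), lost without A20iKO 2, A20iKO 3, WT 1 or WT 3 (adjusted p = 0.082 to 0.199). Anxa6 fell by 0.57 (adjusted p = 0.046), lost without any 1 of 6 libraries, WT+IFNa 2, WT 1, WT 3 and each A20iKO library (adjusted p = 0.0633 to 0.167). Myh9, the myosin bound by S100A4, averaged 765 ± 23.5 CPM in A20iKO, 798 ± 60.7 CPM in WT+IFNa and 769 ± 80.1 CPM in WT. The log2 fold change of Myh9 was −0.01 for A20iKO over WT (SE 0.123, adjusted p = 0.985). Il1a, the cargo of S100A13, had 2, 3 and 23 counts in A20iKO and 0 in the other 6 libraries, too few to be tested.

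Of 12 genes listed as receptors and co-receptors of extracellular S100A8 and S100A9, with the TLR4 adaptor Myd88 among them, 1 rose and 3 fell in A20iKO against WT. Over all genes tested, 5.77% rose and 4.91% fell in this comparison. Cd33, a sialic acid receptor to which human S100A9 binds, had 17.5, 19.7 and 12.4 CPM in A20iKO, 100.9, 94.6 and 88.2 CPM in WT+IFNa and 175.3, 122.7 and 113.9 CPM in WT libraries. It fell by 3.06 against WT (SE 0.240, adjusted p = 3.7e-06) and by 2.52 against WT+IFNa (adjusted p = 3.4e-05). Alcam, an adhesion molecule reported as a receptor of S100A8 and S100A9, averaged 142 ± 15 CPM in A20iKO, 293 ± 20.6 CPM in WT+IFNa and 351 ± 35.4 CPM in WT. It fell by 1.31 against WT (adjusted p = 7.8e-05) and by 1.05 against WT+IFNa (adjusted p = 0.00093). Nptn, encoding neuroplastin, fell by 0.74 against WT (adjusted p = 0.020), lost without A20iKO 2 or WT 3 (adjusted p = 0.0937 and 0.0927).

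Cd14, the co-receptor of TLR4, went the other way from the 3 genes that fell, with 58.1, 80.9 and 75.6 CPM in A20iKO, 11.1, 6.59 and 9.79 CPM in WT+IFNa and 20.7, 8.01 and 14.9 CPM in WT libraries. It rose by 2.29 against WT (SE 0.356, adjusted p = 0.00092) and by 2.96 against WT+IFNa (adjusted p = 0.00033). Tlr4 had 13.1, 13.9 and 12.5 CPM in A20iKO, 19.7, 30.4 and 19.9 CPM in WT+IFNa and 27.8, 23.4 and 25.1 CPM in WT libraries, with an adjusted p of 0.070 against WT. Ager, encoding RAGE, had 83.7 CPM in A20iKO 1 and 10.4 to 19.4 CPM in the other 8 libraries.

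Calprotectin also delivers arachidonic acid to the phagocyte NADPH oxidase, whose 6 subunits listed included 2 that rose in A20iKO against WT, beside 5.77% of all genes. Cybb, the catalytic subunit, had 1171, 1834 and 1646 CPM in A20iKO, 1441, 1345 and 939 CPM in WT+IFNa and 885, 668 and 779 CPM in WT libraries, and rose by 1.00 against WT (SE 0.193, adjusted p = 0.0044). Ncf4, a cytosolic subunit, averaged 47.4 ± 2.16 CPM in A20iKO, 20.6 ± 2.84 CPM in WT+IFNa and 21.1 ± 0.034 CPM in WT. It rose by 1.17 against WT (adjusted p = 0.0073) and by 1.198 against WT+IFNa (adjusted p = 0.011), the second lost without A20iKO 2 or A20iKO 3 (adjusted p = 0.0583 and 0.0558). The mean of both genes was highest in A20iKO, where S100a8 and S100a9 were lowest.

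**Figure D5:**
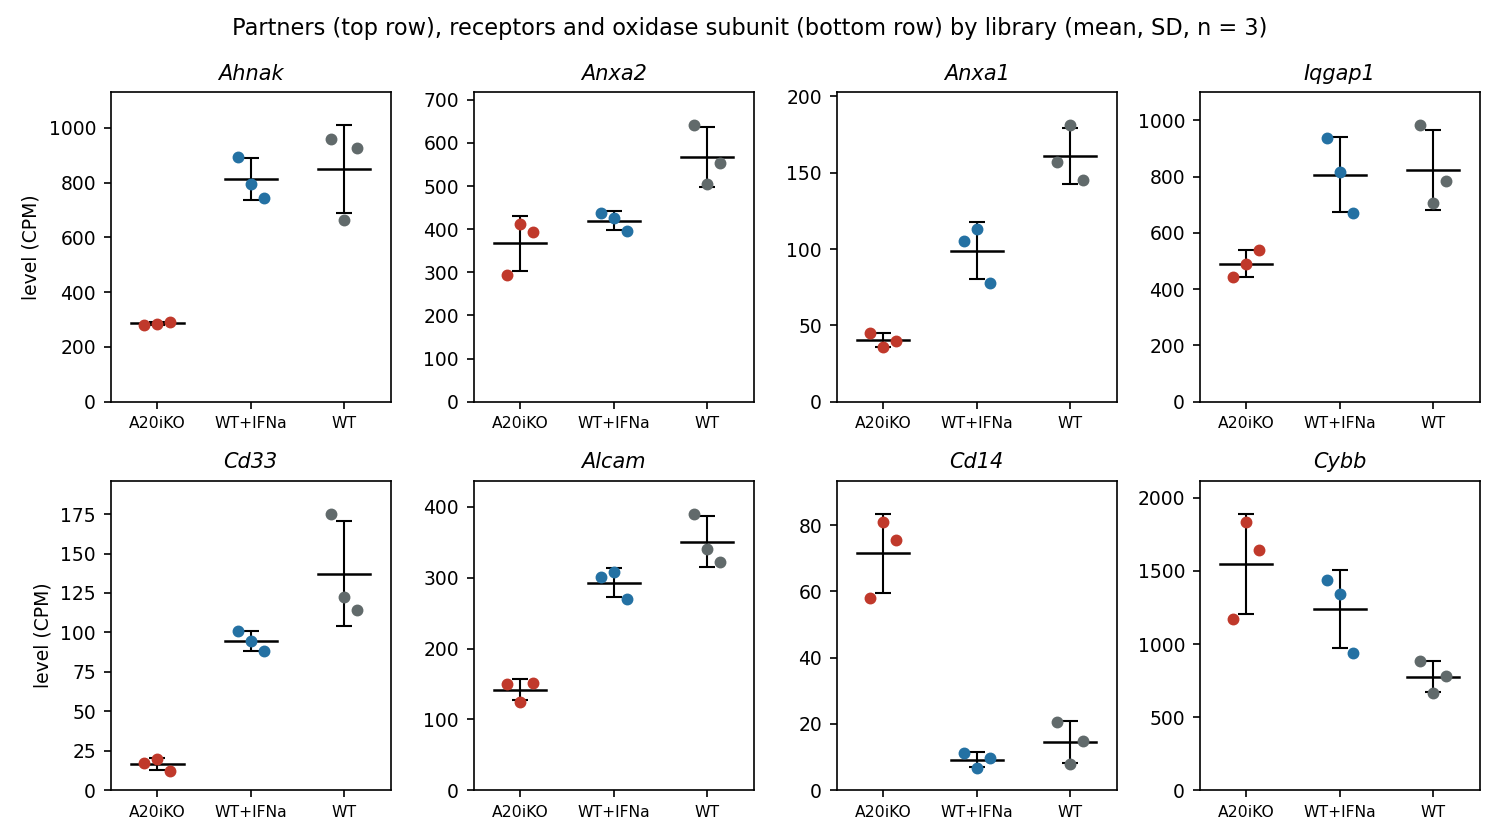
Level in CPM (vertical axes, from 0) of 4 intracellular partners (Ahnak, Anxa2, Anxa1 and Iqgap1, top row), 3 receptors (Cd33, Alcam and Cd14) and the oxidase subunit Cybb in the 9 libraries, with A20iKO, WT+IFNa and WT from left to right. Points are libraries, bars are means and whiskers are SDs of 3 libraries. For Ahnak, Anxa1, Iqgap1, Cd33 and Alcam every A20iKO library lies below all others, and Cd14 is 58.1 to 80.9 CPM in A20iKO and 6.59 to 20.7 CPM elsewhere.

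Transcription factors described as regulators of S100a8 or S100a9 included 2 of 10 that rose in A20iKO against WT, beside 5.77% of all genes. Irf7, an interferon-induced factor, had 102.3, 84.8 and 132.2 CPM in A20iKO, 467.7, 534.7 and 422.6 CPM in WT+IFNa and 6.46, 11.5 and 9.22 CPM in WT libraries. It rose by 3.56 in A20iKO against WT (SE 0.242, adjusted p = 1.2e-06) and by 5.72 in WT+IFNa against WT (SE 0.264, adjusted p = 5.7e-08), and was lower in A20iKO than in WT+IFNa by a log2 fold change of −2.16 (adjusted p = 6.9e-05). It was the one gene of the 51 that passed in WT+IFNa against WT, and it was above WT in both groups, while S100a8 and S100a9 were above WT in WT+IFNa and below it in A20iKO. The part of the listed factors in the S100a8 and S100a9 levels was not tested. Cebpb, a myeloid activator, had 128.7, 85.1 and 88.5 CPM in A20iKO, 15.7, 29.3 and 42.9 CPM in WT+IFNa and 9.40, 47.8 and 13.99 CPM in WT libraries. It rose by 2.09 in A20iKO against WT (adjusted p = 0.021), lost without A20iKO 1, WT 1 or WT 3 (adjusted p = 0.0541 to 0.0891), and the log2 fold change was 3.09 without WT 2.

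The last role was that of other EF-hand genes, which bind calcium through the same fold as the S100 proteins. Pdcd6 averaged 46.3 CPM in A20iKO and 75.5 CPM in WT and fell by 0.71 (adjusted p = 0.036), a call lost when any library other than WT 1 or WT 2 was left out (adjusted p = 0.0509 to 0.173).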

How the data were processed

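RNA of sorted cDC2s was read with a 3′ tag kit, per the labels. Raw counts were deposited, 1 column of whole numbers per library and 1 row per gene symbol. The submitters' processing notes name STAR 2.7.10b, Bowtie2, featureCounts 2.0.6 and fastp 0.23.1 and the build GRCm39, with no role or settings. Annotation, strand setting and the treatment of multiply mapped reads are not given. Counts of near-identical or overlapping genes are therefore uncertain. Genes were kept with filterByExpr (minimum count 10, minimum total 15), which left 99.8% of counts. All 9 libraries entered 1 quasi-likelihood fit (edgeR 4.0.16, R 4.3.3) with TMM scaling, 6 residual degrees of freedom, a common biological coefficient of variation of 0.554 and Benjamini-Hochberg adjustment over 13251 genes at 0.05. Standard errors were derived from the F statistic. The closest pair of libraries in a group had a chi-square of 14.4 per degree of freedom, so each counted as 1 replicate. The series' design text gives 3 mice per group but not which library holds which mouse, so p-values measure the spread between libraries. Named were the 8 members with the value in every library, up to 6 linked genes per role and comparison by smallest p among those past the threshold, the 3 genes most correlated with each member and the 6 with the mean of S100a8 and S100a9. Myh9, Tlr4, Ager, Il1a, Anxa6 and the cell type markers named singly were chosen after their values were seen. Some genes that this rule names are not reported here. Members, lists and motifs were chosen with earlier results of these data known. Promoter windows came from RefSeq (GRCm38.p6) for 7 of the 8 members. Alternatives were DESeq2 1.42.0, other scalings, filters and groups in the fit, a replicate block, a collagen covariate and libraries left out.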

Additional observations from a re-analysis of the deposited data

How the results depend on the processing

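Under 18 alternatives, the 24 log2 fold changes of the 8 S100 genes gave 432 values, of which 428 moved by less than the spread between replicates and 0 changed sign. S100a9 in WT+IFNa against WT was 1.59 with library totals alone. Leaving out 1 library at a time gave −2.77 to −2.35 for S100a8 and −3.57 to −3.16 for S100a9 in A20iKO against WT. In WT+IFNa against WT it gave 1.64 to 1.79 for S100a8 and 1.63 to 1.80 for S100a9, and in A20iKO against WT+IFNa −4.50 to −4.07 for S100a8 and −5.29 to −4.88 for S100a9. Of 26 linked-gene calls, 16 kept their call under every alternative run.

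Genes past the threshold numbered 1416 in A20iKO against WT and 919 to 1406 with 1 library left out, with 919 without A20iKO 2 and 942 without A20iKO 3. They numbered 411 in WT+IFNa against WT, 283 to 426 with 1 library left out, 700 with DESeq2 and 737 with the collagen covariate. They numbered 723 in A20iKO against WT+IFNa, 400 to 888 with 1 library left out (421 without A20iKO 2, 450 without A20iKO 3, 400 without WT+IFNa 1 and 440 without WT+IFNa 2), 1143 with DESeq2 and 1252 with the collagen covariate. Linked genes called in A20iKO against WT were 17, and 9 to 17 with 1 library left out (9 without WT 3). In WT+IFNa against WT they were 1, and 1 to 2 with 1 library left out (2 without A20iKO 1 or WT+IFNa 3), 3 with DESeq2, 3 with library totals alone, 2 with no filter, 6 with the collagen covariate and 2 without the library of highest Col1a1 in each group. In A20iKO against WT+IFNa they were 8, and 6 to 10 with 1 library left out, 14 with DESeq2 and 13 with the collagen covariate. Pdcd6 in A20iKO against WT also lost its call with no filter or only the groups compared in the fit, as did Cacybp with the second of these. Nptn and Pdcd6 in A20iKO against WT, and Ncf4 in A20iKO against WT+IFNa, lost it without the library of highest Col1a1 in each group. The cause of these shifts was not tested.

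With library totals alone the median log2 fold change over all genes was −0.15 in WT+IFNa against WT and 0.12 in A20iKO against WT+IFNa. The share of calls that were higher was then 60.9% in place of 77.4% in WT+IFNa against WT, and 49.3% in place of 37.5% in A20iKO against WT+IFNa. The transcript Gm26917 held 12.3% to 13.8% of counts in A20iKO, 12.2% to 17.3% in WT+IFNa and 5.21% to 11.4% in WT libraries. All 26 linked-gene calls held with library sizes taken without Gm26917, but its part in these shifts was not tested. Same-numbered libraries did not deviate together (correlation −0.37 to 0.24, over 0.1 in 1 of 9 pairs), and 2 of 9 libraries correlated best with their own number. With the replicate block the linked genes called in A20iKO against WT were 11, and Anxa2, Anxa5, Anxa6, Cacybp and Pdcd6 had an adjusted p of 0.0582 to 0.103. The low counts of S100a8 and S100a9 in A20iKO limit the precision of their ratio there.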
